A study of Mus musculus with 18 samples.

Results

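Of the genes that regulate entry into the cell cycle from G1, 10 were examined here in haematopoietic stem and progenitor cells of lupus-prone and healthy mice. They are the D cyclins Ccnd1, Ccnd2 and Ccnd3, the kinases Cdk4 and Cdk6, the inhibitors Cdkn1b, Cdkn2c and Cdkn2d and the pocket proteins Rb1 and Rbl2. The genes were taken by symbol, as a set of known G1 regulators named with earlier results of these data known, and all 10 were found in both expression tables, among 19780 genes in LSK and 18428 in CMPs. RNA from cells sorted out of the bone marrow of female mice was sequenced in 18 samples, 12 of LSK (Lin-Sca-1+c-Kit+ cells, which hold stem and early progenitor cells) and 6 of common myeloid progenitors (CMPs). The lupus model was NZBW/F1 (NZB/W F1 in the labels), the offspring of NZB and NZW parents, which develops the disease spontaneously and carries no transgene. F1-P samples came from young NZBW/F1 mice labelled prediseased and F1-L samples from old NZBW/F1 mice labelled lupus. B6-Y and B6-O samples came from young and old wild-type C57BL/6 mice labelled normal. There were 3 samples in each group, and CMPs were profiled in F1-P and F1-L only. F1-L and F1-P mice differ in age as well as in disease, so these cannot be told apart in that comparison, and a C57BL/6 mouse differs from an NZBW/F1 mouse in strain as well as in health. The study's text reads as if several mice went into each CMP replicate, and the labels do not say whether replicates are separate animals, so p-values measure the spread between these samples.

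D cyclins are made in response to growth signals and bind Cdk4 or Cdk6, and the active kinases phosphorylate the retinoblastoma protein Rb1 and its relatives. Pocket proteins that carry no phosphate hold E2F transcription factors in check, Rb1 mainly at genes for DNA replication and Rbl2 (p130), with E2F4 and the MuvB core, in quiescent cells. The INK4 proteins p18 (Cdkn2c) and p19 (Cdkn2d) bind Cdk4 and Cdk6 and keep cyclin D away, while p27 (Cdkn1b) binds cyclin and kinase together and is known for its activity against Cdk2. In blood cells Cdk6 is the partner that is linked to the exit of stem cells from quiescence, and loss of p18 is known to enlarge the stem cell pool.

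The values are read counts scaled to a common library size (CPM in the following), and the LSK and CMP tables were scaled separately, so that no test was made between them. Totals were 23772252 to 28493747 reads in LSK and 20001328 to 24761060 in CMPs. Kit, the receptor of the sort gate, was at 257 to 657 CPM in LSK and 416 to 668 in CMPs. Ly6a, which encodes Sca-1, was at 35.5 to 879 CPM in LSK and at 1.14 to 6.70 in CMPs, although the study's methods place Sca-1 in the CMP gate as well. The LSK range of Ly6a spans both strains and is not given per group. Its part in the differences between the strains was not tested. All 8 plasma cell markers were in the tables, and none of them was at 0 in every sample of a group. Their summed level was 9742 to 37905 CPM in NZBW/F1 LSK, 253 to 2529 in C57BL/6 LSK and 65.3 to 309 in CMPs. The summed level of 11 neutrophil markers, likewise all detected, was above 5000 CPM in 5 libraries, namely B6-Y replicate 2 (5441), B6-O replicate 3 (10719) and F1-L replicate 1 (12373) of LSK and F1-P replicates 2 (6453) and 3 (8442) of CMPs. B6-O replicate 3 of LSK stood apart in Kit too, with 296 CPM against 650 and 657 in the other two. A sum of 10 erythroid markers was 2930 CPM in F1-P replicate 3 and 58.6 to 674 CPM in the other LSK libraries. The differences of the 10 genes had a median of −0.26 in F1-P against B6-Y (−0.04 over all genes tested), 0.10 in F1-L against B6-O (−0.03), 0.03 in F1-L against F1-P (−0.01) and −0.05 in B6-O against B6-Y (0.02), all on the log2 scale.

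The promoters of the genes that results turn on are given first, to show which of the motifs of Myc, E2F and MuvB their letters hold. Windows from 250 bases before to 50 bases after the start site (RefSeq, GRCm38.p6) were used for 7 of the 10 genes, 9 windows in all, and the promoters of Ccnd1, Ccnd2 and Rb1 were not analysed here. They were searched on both strands for the E-box CACGTG, bound by Myc and its relatives, the E2F motifs TTTNGCGC and GCGGGAA, and TTTGAA, the CHR element read by MuvB complexes. None of the matches overlapped. Cdk4, the kinase that fell in F1-L against B6-O, held 4 E-boxes, which begin 172, 118, 98 and 11 bases before its start site. An E-box was in 7.15% of the 32851 windows of all genes, and at least 4 were in 0.0244% of them (8 windows). Cdkn2c, the inhibitor with the largest change, has an E2F match (GCGGGAA on the opposite strand, in 4.60% of all windows) that begins 25 bases before its first start site, and an E-box that begins 34 bases after its second one. Cdk6 held a single E-box, Rbl2 a single CHR match (17.9% of all windows), TTTNGCGC, which 1.38% of all windows hold, was in none, and the windows of Ccnd3, Cdkn1b and Cdkn2d held no match to any of these motifs. A match is a description of the letters, not of binding. The 250 bases before the start site of Cdk4 (chr10:127063285-127063534, plus strand), of Cdkn2c (first start site, chr4:109666757-109667006, minus strand) and of Cdkn2d (chr9:21291210-21291459, minus strand) are shown 5′ to 3′ on the strand of the gene, with motif matches in capitals.
Cdk4: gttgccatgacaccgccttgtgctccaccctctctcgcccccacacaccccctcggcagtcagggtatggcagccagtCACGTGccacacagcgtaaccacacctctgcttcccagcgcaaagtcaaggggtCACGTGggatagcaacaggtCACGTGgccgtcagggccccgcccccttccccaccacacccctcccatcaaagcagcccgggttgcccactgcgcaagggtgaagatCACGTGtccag
Cdkn2c: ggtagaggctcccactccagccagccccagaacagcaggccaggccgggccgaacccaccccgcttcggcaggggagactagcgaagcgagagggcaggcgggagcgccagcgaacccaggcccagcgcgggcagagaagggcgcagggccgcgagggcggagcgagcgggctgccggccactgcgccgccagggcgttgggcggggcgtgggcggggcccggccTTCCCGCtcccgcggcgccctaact
Cdkn2d: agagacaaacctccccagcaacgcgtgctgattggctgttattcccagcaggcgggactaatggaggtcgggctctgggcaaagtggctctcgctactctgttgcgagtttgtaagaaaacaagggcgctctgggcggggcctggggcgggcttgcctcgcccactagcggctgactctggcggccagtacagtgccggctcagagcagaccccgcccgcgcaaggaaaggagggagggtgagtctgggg

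The largest set of differences lay between the young groups, F1-P and B6-Y, a comparison of the strains before overt disease. In F1-P LSK the transcripts of Ccnd1, Cdkn2c and Cdkn2d fell and that of Ccnd2 rose, so that 4 of the 10 genes passed the thresholds in limma on log2(CPM + 1), which required a fold change over 1.5 at an adjusted p not over 0.05. Over all 14380 genes tested 16.2% passed. Without F1-P replicate 2 the count was 2, Ccnd2 and Cdkn2c, in a fit that called 1346 of all genes, against 2331 in the main fit. The groups did not overlap for 5 of the 10 genes, against 35.5% of all genes, and 6 had an unadjusted p below 0.05, against 31.3%. In the old groups, F1-L against B6-O, Cdk4 and Cdkn2c fell, 2 of 10, with 11.6% of 14381 genes called. The groups did not overlap for 4 of the 10, against 37.4% of all genes, and 4 had an unadjusted p below 0.05, against 27.5%. These calls were both lost when any single library other than B6-O replicate 3 was left out, whereas without that library 3 genes passed, Cdk4, Cdk6 and Cdkn2c. Calls over all genes moved in the same direction. They were 1667 in the main fit, 907 to 1058 with any of the other libraries left out and 2393 without B6-O replicate 3. In these sorted bulk samples fewer cells of a type and less RNA per cell cannot be told apart.

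With disease and age, between F1-L and F1-P LSK, 0 of the 10 genes passed the thresholds in limma, where 4 of 14332 genes did (0.0279%). An unadjusted p below 0.05 was reached by 3 of the 10, against 12.8% of all genes, and these 3, Ccnd1, Cdkn2c and Cdkn2d, were higher in every F1-L sample than in every F1-P sample, against 17.7% of all genes whose groups did not overlap. Markers of other cells also differed without overlap in this comparison. The neutrophil sum was 1983 to 12373 CPM in F1-L and 301 to 1281 in F1-P, the plasma cell sum 9742 to 13036 and 14635 to 37905, and the sum of 10 B lineage markers 255 to 346 and 417 to 798. Their part in the levels of the 3 genes was not tested. On reads recovered from the CPM values edgeR's quasi-likelihood test called 0 of the 10, its likelihood ratio test 2 (Ccnd1 and Cdkn2d, with 4.6% of all genes called) and DESeq2 3 (with 5.16% of all genes called). Between B6-O and B6-Y LSK 0 of the 10 passed in limma (0.0% of 14005 genes), and edgeR and DESeq2 called 0 as well. Over all genes edgeR's quasi-likelihood test called 0 there, its likelihood ratio test 115 and DESeq2 195. Ccnd3 alone had an unadjusted p below 0.05 (6.62% of all genes) and was also the only member whose groups did not overlap (11.3% of all genes). In CMPs, F1-L against F1-P, 0 of the 10 passed in limma (0.00774% of 12926 genes) and 0 in edgeR and DESeq2. Here the quasi-likelihood test called 1 of all genes, the likelihood ratio test 318 and DESeq2 350. Ccnd3 and Rbl2 had an unadjusted p below 0.05 (9.8% of all genes), and both were without overlap between groups (16.0%).

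**Figure D1:**
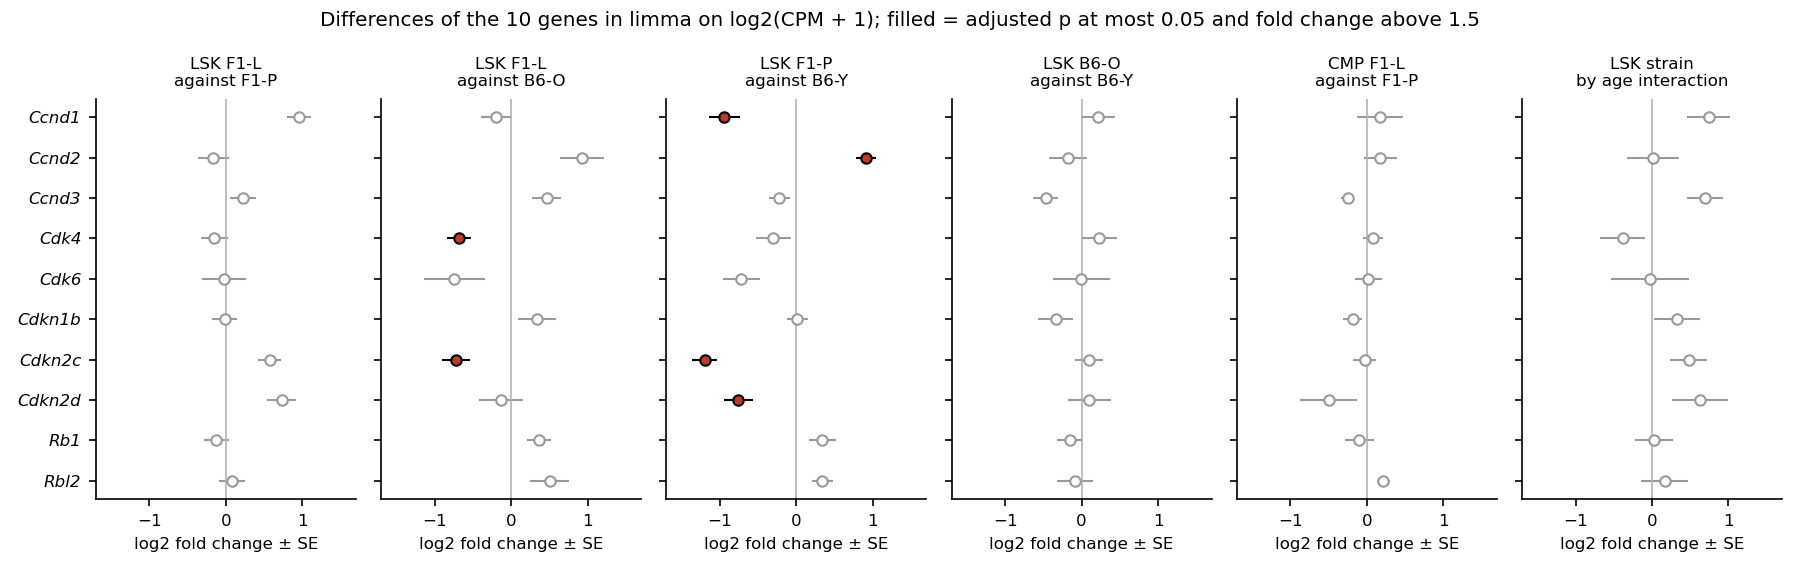
Log2 fold change (x axis) with its SE for each of the 10 genes (rows) in the 5 comparisons and in the strain by age interaction, from limma on log2(CPM + 1), with filled points for genes past the thresholds. Filled points are seen for Ccnd1, Ccnd2, Cdkn2c and Cdkn2d in F1-P against B6-Y and for Cdk4 and Cdkn2c in F1-L against B6-O.

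Ccnd1 (chr7:144929931-144939925, GRCm38, minus strand), the D cyclin tied most closely to mitogen signals, was the scarcest of the 3. In LSK its level was 14.7, 10.9 and 13.8 CPM in F1-P (replicates 1 to 3), 22.9, 26.7 and 29.2 in F1-L, 21.2, 25.9 and 31.7 in B6-Y and 34.6, 33.9 and 23.4 in B6-O. F1-P samples were all below those of the other groups, and the other 3 groups overlapped. Ccnd1 was 1.92-fold lower in F1-P than in B6-Y (log2 fold change −0.94, SE 0.20, limma adjusted p = 0.0154), a call lost without F1-P replicate 2 (adjusted p = 0.0662). In F1-L against F1-P the difference was 0.95 (SE 0.16), with an unadjusted p of 0.000558 and an adjusted p of 0.172 in limma, 0.000772 in edgeR's likelihood ratio test and 6.25e-05 in DESeq2. Over the alternatives the adjusted p of this difference went up to 0.245, and up to 0.579 with a replicate left out. In CMPs Ccnd1 was at 6.00, 8.52 and 14.2 CPM in F1-P and 9.37, 9.34 and 12.6 in F1-L, and these groups overlapped. The counts behind the lowest of these values were 125 reads in CMPs and 186 in LSK.

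Ccnd2 (chr6:127125162-127152193, minus strand), a D cyclin with known roles in B cells and blood progenitors, was high in NZBW/F1 LSK. Its level was 327, 373 and 391 CPM in F1-P and 242, 338 and 411 in F1-L, against 197, 198 and 181 in B6-Y and 203, 209 and 115 in B6-O. Every NZBW/F1 sample was above every C57BL/6 sample, and the lowest C57BL/6 value was that of B6-O replicate 3. Ccnd2 was 1.88-fold higher in F1-P than in B6-Y (log2 fold change 0.91, SE 0.13, limma adjusted p = 0.00303), a call kept under all 11 other settings and with each of the 6 libraries left out. Immunoglobulin genes took 19.2% to 36.5% of reads in F1-P and 0.918% to 2.86% in B6-Y, alongside the plasma cell markers (14635 to 37905 and 788 to 1987 CPM), and the part of plasma cell RNA in the levels of Ccnd2 and of the 3 genes that fell was not tested. Between F1-L and B6-O the difference was of like size, 0.93 (SE 0.29), with an adjusted p of 0.0887 in limma and 0.0200 in DESeq2. In CMPs Ccnd2 was at 137, 152 and 202 CPM in F1-P and at 212, 140 and 205 in F1-L.

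Ccnd3 (chr17:47505051-47599691, plus strand), the D cyclin linked to lymphoid and erythroid development, passed in no comparison. In LSK it was at 208, 185 and 169 CPM in F1-P, 276, 195 and 193 in F1-L, 244, 205 and 209 in B6-Y and 134, 165 and 178 in B6-O. The B6-O samples were all below those of B6-Y (log2 fold change −0.47, SE 0.16, unadjusted p = 0.0234, limma adjusted p = 0.602) and below those of F1-L (0.47 in F1-L against B6-O, SE 0.19, adjusted p = 0.166). In CMPs it was at 200, 189 and 201 CPM in F1-P and lower in all F1-L samples, at 162, 180 and 155 (log2 fold change −0.25, SE 0.08, unadjusted p = 0.0237, limma adjusted p = 0.460).

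**Figure D2:**
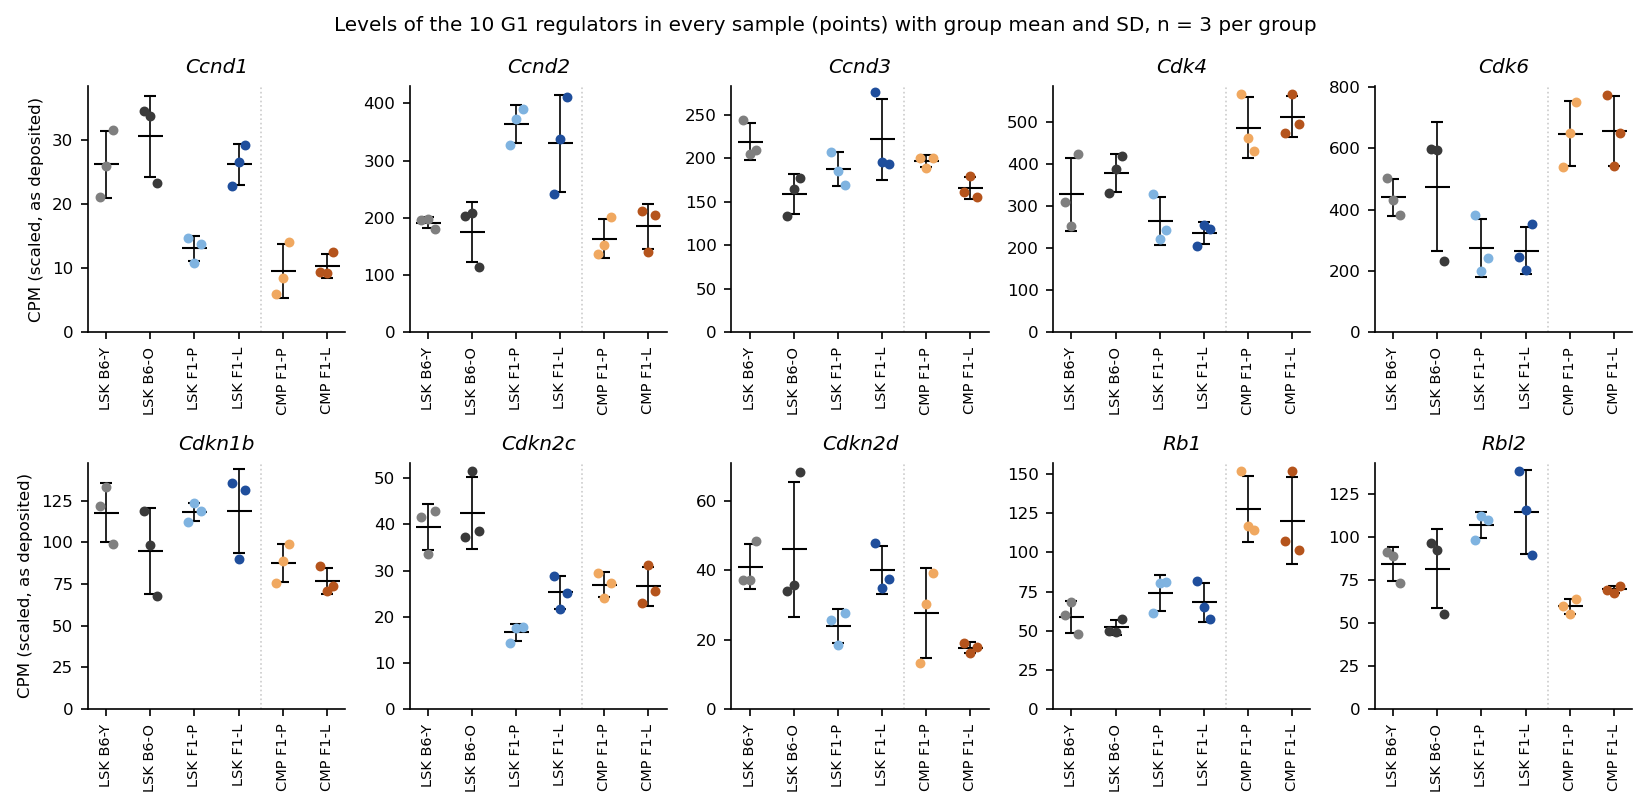
CPM (y axis, starting at 0) of each of the 10 genes in all 18 samples, with points for samples and bars for the group mean and SD (n = 3), LSK to the left of the dotted line and CMPs to the right. Ccnd1 and Cdkn2c are lowest in F1-P LSK (means 13.1 and 16.6 CPM) among the LSK groups, and Ccnd2 is higher in all NZBW/F1 LSK samples than in all C57BL/6 ones.

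The choice among D cyclins was described by the share of each in their summed level per kilobase of exon, a quantity within a sample that does not depend on its scaling. In B6-Y LSK Ccnd3 held 48.9% ± 2.86 (SD, n = 3) and Ccnd2 40.1% ± 1.85, with 8.46% to 13.5% for Ccnd1. In F1-P LSK Ccnd2 held 61.5% ± 4.51 and Ccnd3 34.1% ± 4.15, and Ccnd1 held 4.45% ± 0.72. Thus all 3 shares differed without overlap between these groups, by 21.4 percentage points for Ccnd2, −14.9 for Ccnd3 and −6.56 for Ccnd1. The shares are parts of one sum, so that a larger Ccnd2 share lowers the others and the 3 are not separate results. The level of Ccnd3 itself overlapped between F1-P and B6-Y (log2 fold change −0.23, SE 0.14, limma adjusted p = 0.319). Each share had a p of 0.1 in a two-sided exact permutation test, the smallest that 3 samples against 3 can give. It was 0.5 after Benjamini-Hochberg adjustment over the 35 tests of shares and balances.

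Ccnd1 was the share that set F1-L apart from both F1-P and B6-O. It was 7.83%, 8.88% and 8.63% in F1-L, against 5.08%, 3.66% and 4.60% in F1-P and 16.6%, 14.9% and 13.3% in B6-O. The F1-L samples lay between these groups with no overlap on either side (exact permutation p = 0.1 for each, adjusted p = 0.5). In F1-L the Ccnd2 share ranged from 41.5% to 60.8% and overlapped with both F1-P (56.5% to 65.2%) and B6-O (32.6% to 48.9%). The lowest Ccnd2 share in F1-L and in B6-O was that of replicates 1 and 3, the libraries of each group with the highest neutrophil marker sum, and the part of these cells in the share was not tested. In CMPs Ccnd3 held 54.0% ± 5.39 in F1-P and 46.6% ± 7.14 in F1-L, Ccnd2 41.3% ± 3.85 and 48.0% ± 7.02, and Ccnd1 4.75% ± 1.54 and 5.43% ± 0.86, with overlap for all 3. Ccnd3 has many annotated exons outside its longest transcript (8775 against 3858 bases), so that the size of its share and the leading cyclin depend on the length used. With the longest transcript Ccnd3 led in F1-L LSK (49.3% against 44.7% for Ccnd2) and in F1-L CMPs (57.4% against 38.9%), where Ccnd2 led with the union of exons. Ccnd2 still led in F1-P LSK (52.5% against 44.3%) and Ccnd3 in B6-Y LSK (60.2% against 32.3%).

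**Figure D3:**
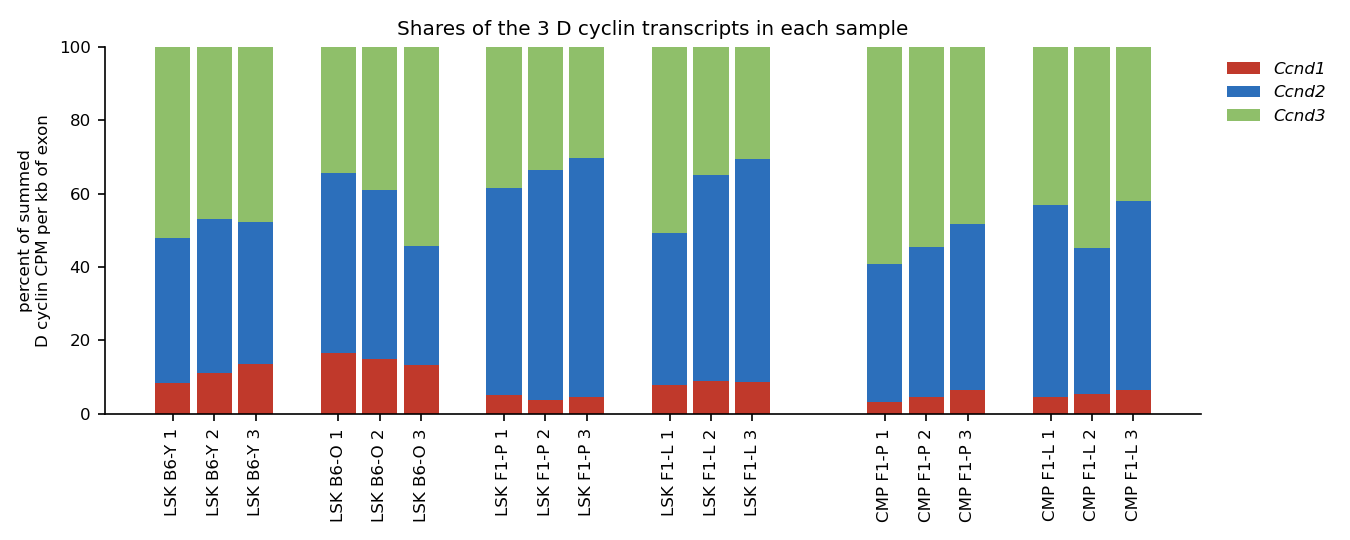
Percent of the summed D cyclin level per kilobase of exon (y axis) that Ccnd1, Ccnd2 and Ccnd3 hold in each of the 18 samples (x axis). The Ccnd2 segment is larger in all F1-P LSK samples (56.5% to 65.2%) than in all B6-Y samples (38.7% to 42.2%), and the Ccnd1 segment is smaller in all F1-P LSK samples (3.66% to 5.08%) than in all other LSK samples.

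Both kinases had lower means in NZBW/F1 than in C57BL/6 LSK. Cdk4 (chr10:127063534-127067920, plus strand), whose promoter holds the 4 E-boxes shown above, was at 329, 222 and 243 CPM in F1-P, 206, 255 and 247 in F1-L, 310, 253 and 424 in B6-Y and 332, 388 and 421 in B6-O. All F1-L samples were below all B6-O samples, while F1-P and B6-Y overlapped. Cdk4 was 1.61-fold lower in F1-L than in B6-O (log2 fold change −0.68, SE 0.16, limma adjusted p = 0.0363), with an adjusted p of 0.0282 to 0.124 when a library was left out. With both libraries above 5000 CPM of neutrophil markers left out the difference was −0.51 (adjusted p = 0.0267) and under the fold threshold. Cdk4 overlaps Tspan31 on the opposite strand. The library kit does not keep the strand, so reads of any shared exons cannot be told apart. The same limit holds for Ccnd1, Ccnd3, Rb1 and Rbl2, which overlap protein-coding genes on the opposite strand, and for Ccnd2 and Cdk6, which overlap antisense genes. Rb1 also overlaps Gm17233 and Mir687 on its own strand. Overlap was taken from the start and end of each gene, and whether exons are shared was not examined.

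Cdk6 (chr5:3341485-3531008, plus strand) was at 383, 201 and 241 CPM in F1-P, 245, 203 and 352 in F1-L, 504, 432 and 382 in B6-Y and 597, 593 and 232 in B6-O. The low B6-O value was replicate 3, and without it every C57BL/6 sample but B6-Y replicate 3 was above every NZBW/F1 sample. The difference was −0.72 (SE 0.25, limma adjusted p = 0.0856) in F1-P against B6-Y and −0.74 (SE 0.40, adjusted p = 0.277) in F1-L against B6-O, which ranged from −1.19 to −0.51 when a library was left out. The −1.19 was that without B6-O replicate 3 (adjusted p = 0.0170), and in F1-P against B6-Y Cdk6 was called in DESeq2 (adjusted p = 0.0394) and without F1-P replicate 1 (0.0115). Kit moved in the same direction, with means of 303 CPM in F1-P and 389 in F1-L against 447 in B6-Y and 534 in B6-O, and plasma cell markers moved in the opposite one (14635 to 37905 CPM in F1-P, 788 to 1987 in B6-Y). Their part in the kinase levels was not tested. The share of Cdk6 in the summed level of both kinases per kilobase was 11.3% to 29.5% over the LSK samples and overlapped in all comparisons.

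The inhibitors gave the largest change. Cdkn2c (chr4:109660876-109667189, minus strand), which encodes p18, was at 14.4, 17.6 and 17.8 CPM in F1-P LSK, 28.8, 21.7 and 25.2 in F1-L, 41.6, 33.7 and 43.0 in B6-Y and 37.3, 51.6 and 38.5 in B6-O. The NZBW/F1 groups were each below both C57BL/6 groups in every sample, and F1-P was below F1-L in every sample. Cdkn2c was 2.29-fold lower in F1-P than in B6-Y (log2 fold change −1.20, SE 0.16, limma adjusted p = 0.00233), a call kept under all 11 other settings and with each library left out. It was 1.65-fold lower in F1-L than in B6-O (−0.72, SE 0.18, adjusted p = 0.0459), with an adjusted p of 0.0329 to 0.142 when a library was left out. Between F1-L and F1-P the difference was 0.57 (SE 0.15, unadjusted p = 0.00660, limma adjusted p = 0.204, DESeq2 adjusted p = 0.0270). In CMPs the groups overlapped, at 29.5, 24.1 and 27.2 CPM in F1-P and 23.0, 31.2 and 25.5 in F1-L.

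Cdkn2d (chr9:21288410-21291407, minus strand), which encodes p19, was at 25.6, 18.5 and 27.6 CPM in F1-P LSK, 48.0, 34.9 and 37.4 in F1-L, 37.2, 37.3 and 48.4 in B6-Y and 34.0, 35.7 and 68.3 in B6-O. All F1-P samples were below all other LSK samples. The gene was 1.69-fold lower in F1-P than in B6-Y (log2 fold change −0.76, SE 0.19, limma adjusted p = 0.0322), a call lost without B6-Y replicate 1 or 3 or F1-P replicate 2 (adjusted p up to 0.111) and with all 12 LSK samples in one fit (0.0617). In F1-L against F1-P it differed by 0.73 (SE 0.19, unadjusted p = 0.00619), with an adjusted p of 0.199 in limma, 0.0337 in edgeR's likelihood ratio test and 0.0208 in DESeq2. In CMPs the F1-P samples spread widely, at 13.4, 30.4 and 39.1 CPM, around F1-L samples at 19.1, 16.1 and 17.8.

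High Cdkn2d went with neutrophil markers in some libraries but not in all. The highest LSK value, 68.3 CPM in B6-O replicate 3, came with a marker sum of 10719 CPM, and the highest F1-L value, 48.0 CPM, with 12373. In CMPs the high F1-P replicates 2 and 3 had marker sums of 6453 and 8442 CPM, while F1-P replicate 1 had 315 and the F1-L samples 64.2 to 431. In F1-P LSK, where Cdkn2d was lowest, the sums were 301 to 1281, but B6-Y replicates 1 and 3 had 37.2 and 48.4 CPM of Cdkn2d at sums of 499 and 485. B6-Y replicate 2, with a sum of 5441, had 37.3 CPM, close to replicate 1. F1-L replicate 2, with a sum of 4905, had the lowest F1-L value, 34.9 CPM, against 37.4 in replicate 3 at 1983. Without CMP F1-P replicate 1 Cdkn2d was called lower in F1-L (−0.93, limma adjusted p = 0.0350), in a fit that called 510 genes. With F1-P replicates 2 and 3 left out instead, the difference turned to 0.37 (adjusted p = 0.871), where the lone F1-P sample was assumed to vary like those of F1-L. The part of neutrophil RNA in these values was not tested.

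**Figure D4:**
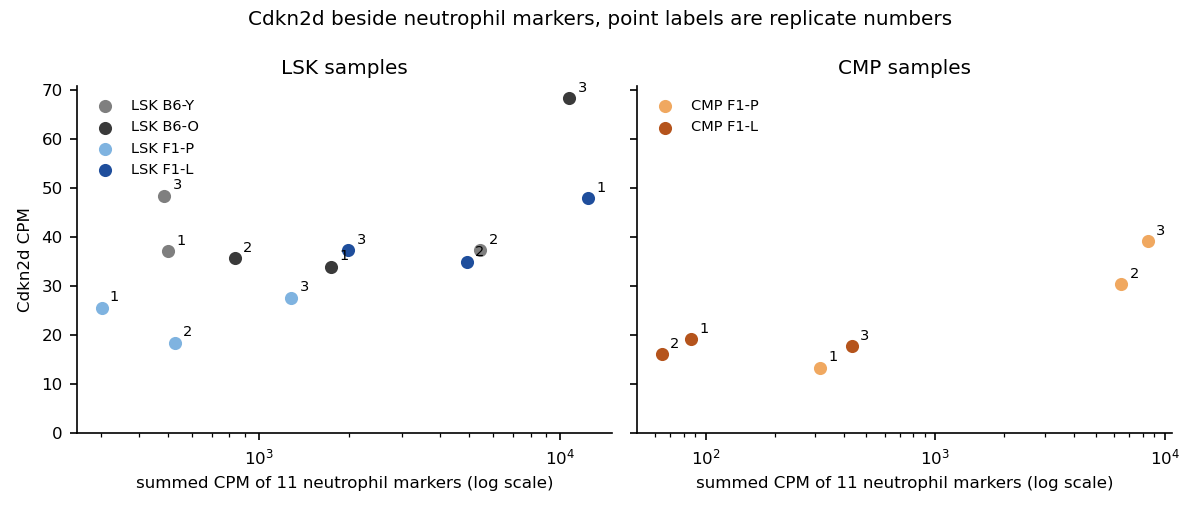
CPM of Cdkn2d (y axis) against the summed CPM of 11 neutrophil markers (x axis, log scale) in the 12 LSK samples and the 6 CMP samples, labelled by replicate number. CMP F1-P replicates 2 and 3, at 30.4 and 39.1 CPM, lie far to the right of the other CMP samples, and LSK B6-O replicate 3 holds the highest value, 68.3 CPM.

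Cdkn1b (chr6:134920401-134925513, plus strand), which encodes p27, did not pass the thresholds in any comparison. Its LSK levels were 112, 124 and 119 CPM in F1-P, 136, 89.9 and 131 in F1-L, 121, 133 and 98.7 in B6-Y and 119, 98.2 and 67.7 in B6-O, and all 4 groups overlapped. Because both INK4 genes were low in F1-P, Cdkn1b held a larger share of the 3 inhibitors per kilobase there. The share was 53.3%, 59.7% and 51.9% in F1-P, against 41.9%, 39.5% and 46.5% in F1-L and 40.6%, 44.7% and 31.7% in B6-Y. F1-P lay above both groups with no overlap, by 16.0 percentage points over B6-Y, and F1-L was 12.3 percentage points below F1-P, since the value was 42.6% ± 3.55 (SD, n = 3) against 54.9% ± 4.19. Each p was 0.1 in the exact permutation test and 0.5 when adjusted. In CMPs the share was 38.2% to 46.0% in F1-P and 41.7% to 47.6% in F1-L.

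Among the pocket proteins Rb1 (chr14:73183673-73325822, minus strand) was at 61.0, 80.3 and 81.4 CPM in F1-P LSK, 81.6, 65.2 and 57.6 in F1-L, 59.9, 68.2 and 48.0 in B6-Y and 49.8, 49.4 and 57.7 in B6-O. Rbl2 (chr8:91070057-91123844, plus strand) was at 98.4, 112 and 110 CPM in F1-P, 139, 115 and 89.5 in F1-L, 91.4, 88.7 and 73.3 in B6-Y and 96.7, 92.7 and 55.3 in B6-O. Of both genes in LSK, Rbl2 in F1-P against B6-Y was the one without overlap (log2 fold change 0.34, SE 0.13, unadjusted p = 0.0345, limma adjusted p = 0.124). In CMPs Rbl2 was at 59.9, 55.4 and 64.0 CPM in F1-P and at 69.2, 67.6 and 71.8 in F1-L, above F1-P in every sample (0.22, SE 0.09, unadjusted p = 0.0465, adjusted p = 0.503). None of these passed the thresholds. The share of Rbl2 in both pocket proteins per kilobase was 53.6% ± 2.33 in F1-P and 53.5% ± 2.29 in B6-Y LSK (SD, n = 3), a difference of 0.03 percentage points.

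The change with age was then compared between the strains in a fit of all 12 LSK samples. The interaction called 0 of the 10 genes in limma, with 0.0% of 15084 genes called, and 0 in edgeR and DESeq2. Over all genes edgeR's quasi-likelihood test called 0, its likelihood ratio test 10 and DESeq2 30. Ccnd1 (0.74, SE 0.28, unadjusted p = 0.0226) and Ccnd3 (0.69, SE 0.24, unadjusted p = 0.0128) were the 2 members under 0.05, against 3.92% of all genes, both with an adjusted p of 0.976. For Ccnd3 the old and young groups overlapped in NZBW/F1 and did not in C57BL/6, where the difference was −0.47.

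Levels in LSK and CMPs of F1-P and F1-L are given side by side and without a test. The share of all genes without overlap between LSK and CMPs is not given, so the lack of overlap below only describes the levels. Immunoglobulin genes took 19.2% to 36.5% of reads in F1-P LSK, 16.8% to 25.5% in F1-L LSK and 0.0152% to 0.255% in CMPs, and their part was not tested. Cdk4, Cdk6 and Rb1 were higher in all 3 CMP samples than in all 3 LSK samples, both in F1-P and in F1-L. In F1-P Cdk4 was at 488 ± 71.9 CPM in CMPs and 265 ± 56.7 in LSK, Cdk6 at 647 ± 106 and 275 ± 95.6, and Rb1 at 128 ± 20.9 and 74.2 ± 11.5 (SD, n = 3). Ccnd2, Cdkn1b and Rbl2 were lower in all CMP samples, again in both groups. Ccnd2 was at 164 ± 33.9 CPM in F1-P CMPs and 363 ± 32.9 in LSK, Cdkn1b at 87.6 ± 11.6 and 118 ± 5.59, and Rbl2 at 59.7 ± 4.29 and 107 ± 7.46. For the remaining 4 genes LSK and CMP samples overlapped in one of the groups. Cdkn2c was higher in CMPs than in LSK in F1-P (26.9 ± 2.71 against 16.6 ± 1.92 CPM) and overlapped in F1-L. Ccnd1, Ccnd3 and Cdkn2d were lower in CMPs in F1-L and overlapped in F1-P. For Ccnd1 the F1-L means were 10.4 ± 1.87 CPM in CMPs and 26.3 ± 3.21 in LSK. The share of Rbl2 in both pocket proteins was 23.9% to 36.0% over the CMP samples and 43.2% to 60.7% over the LSK samples.

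Per kilobase of exon, Cdk4 was the most abundant of the 10 transcripts and Ccnd1 the least in all 6 groups. In B6-Y LSK the levels per kilobase were 101 ± 26.8 CPM for Cdk4, then 31.4 ± 4.38 for Cdk6, 26.0 ± 4.11 for Cdkn2d, 25.9 ± 3.86 for Cdkn1b and 25.0 ± 2.44 for Ccnd3, and none of these last 4 was above the next of them in every sample. Ccnd2 followed at 20.4 ± 1.00, Cdkn2c at 14.7 ± 1.87, Rbl2 at 11.2 ± 1.29, Rb1 at 9.76 ± 1.69 and Ccnd1 at 5.58 ± 1.11 CPM per kilobase (SD, n = 3). In F1-P LSK Ccnd2 was second, at 38.6 ± 3.50 CPM per kilobase, above Cdkn1b (26.0 ± 1.23) in every sample, and Cdk6 came after Ccnd3, at 19.7 ± 6.83. In CMPs Cdk6 was second in both groups, at 46.2 ± 7.55 and 46.8 ± 8.19, above the next gene in every sample.

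Further cell cycle genes were followed in 8 lists. In F1-P against B6-Y, where 16.2% of all genes were called, 11 of the 75 listed genes passed, not all of which were tested. This was no larger a share than over all genes, and the counts per list are small. Of 10 genes of G2 and M phase 3 passed downward and 0 upward. The 3 were Cdk1, the mitotic kinase (−0.73, SE 0.18, limma adjusted p = 0.0305), Aurka (−0.74, SE 0.20, adjusted p = 0.0374) and Ccnb2 (−0.84, SE 0.23, adjusted p = 0.0442). All 10 differences of this list were negative, and its median was −0.60, against −0.04 over all genes. Of 11 E2F factors and partners E2f8 alone passed, downward (−0.95, SE 0.19, adjusted p = 0.0137). So did Foxm1 of 7 MuvB and Myb-Foxm1 genes and Ccna2 of 7 genes of the cyclin E and A step (−0.65, SE 0.14, adjusted p = 0.0172). Of 3 other inhibitors tested it was Cdkn3, a phosphatase that acts on cyclin-dependent kinases. Foxm1, the mitotic transcription factor, changed by −0.63 (SE 0.15, adjusted p = 0.0277) and Cdkn3 by −0.96 (SE 0.22, adjusted p = 0.0202). None of the 11 S phase genes passed the thresholds, and all 11 differences were negative (median −0.47). Cdt1, a factor that licenses replication, had an adjusted p of 0.0468 but a difference of −0.55, under the fold threshold. Of 14 genes linked to stem cell quiescence 3 passed downward and 0 upward. The 3 were the transcription factors Hlf (−0.998, SE 0.19, adjusted p = 0.00948), Gata2 (−0.99, SE 0.22, adjusted p = 0.0190) and Meis1 (−1.12, SE 0.15, adjusted p = 0.00244). At an unadjusted p below 0.05 in limma 7 of the 14 were lower and 3 higher, a level reached by 31.3% of all genes. Of 10 genes upstream of D cyclins Fbxo4, an F-box protein tied to cyclin D1 turnover, rose (0.71, SE 0.18, adjusted p = 0.0308). Kit was lower and plasma cell markers were higher in these F1-P samples than in B6-Y, as given above, and their part in these lists was not tested.

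In F1-L against B6-O, where 11.6% of all genes were called, 5 of the 75 listed genes passed, a smaller share than over all genes. Mcm7, a subunit of the replicative helicase (−0.68, SE 0.14, limma adjusted p = 0.0211), was the only one of 11 S phase genes past the thresholds. Of these 11 genes 10 were lower, 9 at an unadjusted p below 0.05 in limma (27.5% of all genes), with a list median of −0.53. Ccnb2 (−0.78, SE 0.18, adjusted p = 0.0329) was the only one of 10 G2 and M phase genes past the thresholds. All 10 were lower, 5 at an unadjusted p below 0.05. Of the quiescence genes Hlf (−1.20, SE 0.25, adjusted p = 0.0241) and Meis1 (−0.96, SE 0.23, adjusted p = 0.0403) fell, and Foxo1, a factor restrained by Akt signalling, rose (1.07, SE 0.13, adjusted p = 0.00287). The other 5 lists held no call. The median over all genes was −0.03. Immunoglobulin genes took 16.8% to 25.5% of reads in F1-L and 0.301% to 4.76% in B6-O. The plasma cell sum was 9742 to 13036 CPM in F1-L and 253 to 2529 in B6-O. The part of plasma cell RNA in these lists was not tested.

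Between F1-L and F1-P no gene of the 8 lists passed the thresholds in limma. The quiescence list had the largest median there, 0.53 against −0.01 over all genes, with 5 of 14 genes higher and 1 lower at an unadjusted p below 0.05, a level reached by 12.8% of all genes. Gata2, a regulator of stem cells and early progenitors, had a difference of 1.48 (SE 0.33, unadjusted p = 0.00280, adjusted p = 0.177), and Foxo1 one of −0.75 (SE 0.15, unadjusted p = 0.00178, adjusted p = 0.172). The G2 and M phase list had a median of 0.17 and 0 genes under 0.05, and the S phase list a median of 0.01 and 0 genes. Upstream of D cyclins, Mycn (0.91, SE 0.17, unadjusted p = 0.00108, adjusted p = 0.172) and Myc (0.49, SE 0.19, unadjusted p = 0.0371, adjusted p = 0.350) were higher in F1-L. Neither passed the thresholds. The differences in neutrophil, plasma cell and B lineage markers given above hold for these lists too, and their part was not tested.

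Neither B6-O against B6-Y nor CMPs held a call in these lists. The quiescence list again had the largest median in C57BL/6 LSK, 0.46 in B6-O against B6-Y, with 8 of 14 genes higher and 1 lower at an unadjusted p below 0.05 (6.62% of all genes), among them Gata2 (0.75, SE 0.19, unadjusted p = 0.00485, adjusted p = 0.354) and, lower, Foxo1 (−0.95, SE 0.25, unadjusted p = 0.00558, adjusted p = 0.358). In CMPs its median was 0.38, with 5 of 14 higher and 1 lower (9.8% of all genes), and Gata2 (1.10, SE 0.18, unadjusted p = 0.000782) and Tek, the angiopoietin receptor (1.32, SE 0.29, unadjusted p = 0.00339), had adjusted p-values of 0.352 and 0.353. In CMPs Myc (0.63, SE 0.13, unadjusted p = 0.00236) and Mycn (1.46, SE 0.31, unadjusted p = 0.00286) were higher in F1-L, with an adjusted p of 0.353 for each. The p53 target Cdkn1a had a difference of −1.72 in CMPs (SE 0.47, unadjusted p = 0.00941, adjusted p = 0.394). In the interaction of strain and age the lists held 0 calls.

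**Figure D5:**
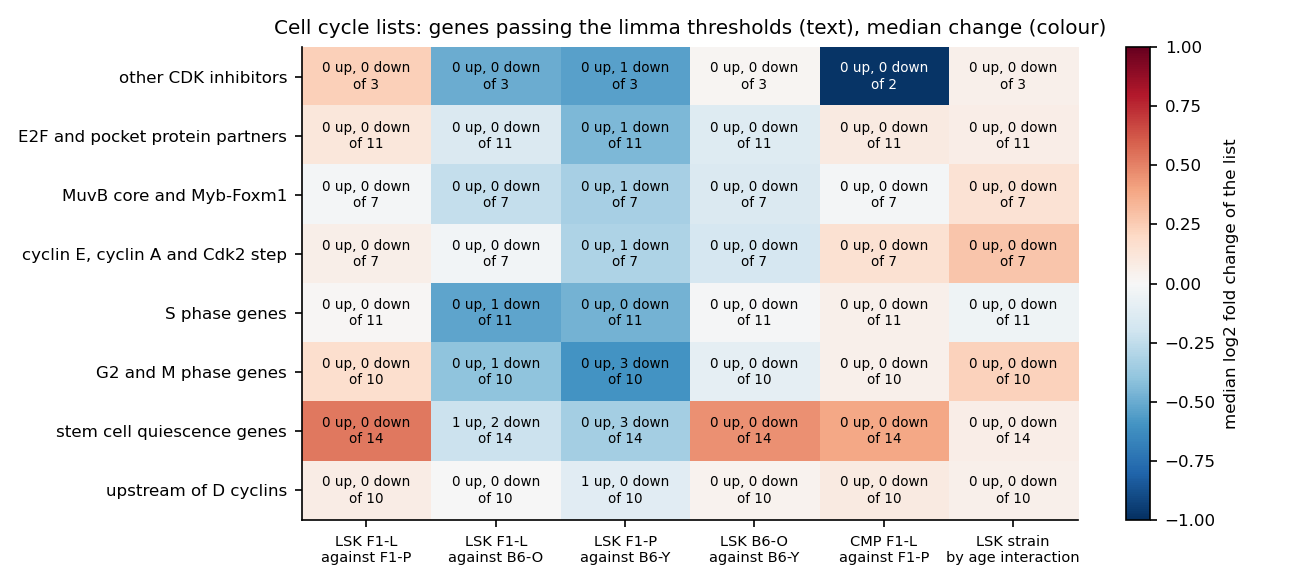
Genes of 8 cell cycle lists (rows) that passed the limma thresholds upward or downward of those tested (text in the cells) in each comparison (columns), with the median log2 fold change of the list as colour. Calls are seen in F1-P against B6-Y and F1-L against B6-O, and the quiescence list has positive medians of 0.53, 0.46 and 0.38 where old samples are set against young ones of the same strain and cell type.

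The genes most like the D cyclins over the 12 LSK samples were looked up among 11331 genes by Pearson's r of log2(CPM + 1), as a description only, since the points share strain, libraries and scaling. Ccnd1 was followed most closely by Itga5 (r = 0.97), an integrin subunit, Pear1 (0.95) and Ampd2 (0.94). For Ccnd2 these were Tmem123 (r = 0.97), Slc41a1 (0.96), a magnesium transporter, and Bmi1 (0.96), a Polycomb protein known for stem cell self-renewal. For Ccnd3 the values were lower, 0.87 for E2f2, 0.86 for Padi2 and 0.85 for Il10ra. Cdkn2c was followed by Eldr (r = 0.96), Pot1a (0.95), a telomere protein, and Gm16758 (0.94).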

How the data were processed

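RNA of sorted LSK (12 samples) and CMPs (6 samples) was sequenced as single-end reads from unstranded Illumina TruSeq libraries. The authors aligned reads to mm10 with STAR 2.6 (submitters' processing notes), counted them per gene with HTSeq and scaled them with edgeR. NZBW/F1 reads were aligned to the same mm10 reference, the C57BL/6 genome. The deposited values are a signal, CPM of a library size that the authors had scaled, and 100.0% of them were whole multiples of 1 read within 0.1 reads. The analysis plan had assumed plain CPM. Gene IDs were matched to GENCODE M21 for 19770 LSK and 18421 CMP genes. All columns of samples were used.

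Genes reaching 1 CPM in 3 or more samples entered each test, which used limma 3.58.1 (R 4.3.3, eBayes with trend) on log2(CPM + 1) in the samples of the 2 groups compared, or all 12 for the interaction, and p-values were adjusted over all genes by the Benjamini-Hochberg method. Fold changes on this scale understate changes of low genes. A gene was called at a fold change over 1.5 with an adjusted p not over 0.05, after the study's methods. Shares and balances used CPM per kilobase of the union of exons and two-sided exact permutation tests (scipy 1.17.1). Replicates of a group differed by more than sampling noise (chi-square per degree of freedom 10.9 to 252.5). Alternatives were pseudocounts, filters, scalings, a replicate block, edgeR 4.0.16 and DESeq2 1.42.0 on recovered reads, no fold minimum, all LSK in one fit, transcript length and leaving out each library. Leaving out libraries above 5000 CPM of neutrophil markers was added after the data were seen. The tests were tested on simulated data. Named genes were the 10 members, genes of each list that were called or, where fewer than 2 were called, had the lowest p (a selection of these is given for lists without calls), and the 3 genes most correlated with Ccnd1, Ccnd2, Ccnd3 and Cdkn2c at a mean CPM of at least 5. Members, lists and tests were chosen with earlier results of these data known.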

Additional observations from a re-analysis of the deposited data

How the results depend on the processing

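The count of members past the thresholds was 0 under all alternatives in B6-O against B6-Y LSK and in the interaction. In F1-L against F1-P LSK it was 0 except for 2 in edgeR's likelihood ratio test and 3 in DESeq2 (0 with each library left out). In F1-L against B6-O it was 1 with a mean CPM of at least 5, with median of ratios scaling, with the replicate block and in edgeR's quasi-likelihood test, 3 in DESeq2 and in the joint fit of the 12 LSK samples, and 0 to 3 when a library was left out. Over all genes these settings called 978, 1669, 1380, 1450, 2341 and 1975 in the order given, against 1667 in the main fit. Fits with a library left out called 907 to 2393 genes. In F1-P against B6-Y the count of members was 3 to 5 under the other settings and 2 to 5 when a library was left out (2 without F1-P replicate 2). Over all genes the other settings called 1579 to 2833 and the fits without a library 1346 to 2704, against 2331 in the main fit. In CMPs the count of members was 0 except without F1-P replicate 1, a range of 0 to 1. That fit called 510 genes, against 1 in the main fit. With libraries high in neutrophil markers left out, a setting chosen after seeing the data, the count of members was 3 in F1-L against B6-O (Ccnd2, Cdk6 and Cdkn2c), with 2446 of all genes called. It was 0 in B6-O against B6-Y and in the interaction. In CMPs this setting left 1 F1-P sample, so no count is given. The replicate numbers were not taken to pair the samples, since same-numbered samples correlated by −0.45 to 0.62 and in no comparison did every pair exceed 0.1. In F1-P against B6-Y these values were 0.07 to 0.33, and 4 of 6 samples correlated best with the sample of their own number. A batch shared by replicate number was not tested. With the replicate block 5 members passed in F1-P against B6-Y, Cdk6 in addition (adjusted p = 0.0273), Cdkn2c was lost in F1-L against B6-O (adjusted p = 0.102), and no other member's call changed. The cause of these changes in the counts was not tested.

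All log2 fold changes with an unadjusted p below 0.05 kept their sign under all alternatives. Of the 42 others 25 changed sign under at least 1 alternative. With the length of the longest transcript the Ccnd1 share differed by 2.81 percentage points in F1-L against F1-P, −4.56 in F1-L against B6-O and −4.31 in F1-P against B6-Y, smaller than with the union of exons (4.0, −6.50 and −6.56), and the other 32 differences moved by less than the replicate SD. Depth limits Ccnd1 most, at 125 to 1113 reads per sample.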
